A study of Pinctada fucata with 15 samples.

Results

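The shematrins are a family of glycine-rich shell matrix proteins of the pearl oyster *Pinctada fucata*, and 3 of the array probes examined here, those of Shematrin-4 (CUST_24804_PI429347424), Shematrin-5 (CUST_31_PI429347424) and Shematrin-6 (CUST_50742_PI429347424), were followed through larval development. They were chosen by probe name, and they are 3 of the 58883 probes of sample RNA on the array. The scanner files give no gene names, so that the identity of each probe rests on the annotation given in the study. Each gene was read here by 1 probe, printed once per array, and the array may hold other probes of the same genes. The probe sequences were not used, and signal shared between relatives of the family could therefore not be checked.

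RNA came from pools of whole animals of normal culture, with no treatment, and was measured on 15 one-colour (Cy3) Agilent arrays, 1 for each of 3 pools per stage. The stages were fertilized eggs (0 h), trochophore larvae (17 h), D-shaped larvae (48 h), umbonal larvae (14 days) and juveniles (35 days). Sperm and eggs of adult oysters had been mixed, and whether the 3 pools of a stage came from separate crosses is not given, so that the p values measure the spread between these pools. In RNA of whole animals, fewer cells of a type and less RNA per cell cannot be told apart.

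Shell matrix proteins are secreted by the mantle, the tissue that lines the shell, and are built into the shell together with calcium carbonate. Shematrins are regarded as framework proteins with long glycine-rich repeats, and the study counts them among the proteins of both shell layers, the outer calcitic prismatic layer and the inner aragonitic nacreous layer. Larvae first build the thin prodissoconch shells, and the layered shell of prisms and nacre is laid down from the juvenile stage on. The study states that the array was built on transcripts of mantle, and some of its probes were designed from GenBank records.

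The share of probe spots that the scanner software called well above background was 53.3% to 65.6% in fertilized eggs, 80.9% to 91.3% in umbonal larvae and 89.3% to 91.2% in juveniles. The lowest signal so called was between 18.1 and 89.4 across the arrays. The arrays lay on 2 slides: fertilized eggs, trochophore larvae and D-shaped pools 1 and 2 on slide 1, and D-shaped pool 3, umbonal larvae and juveniles on slide 2.

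The 3 shematrin probes shared 1 pattern: little or no signal over background from the egg to the umbonal stage, and a bright signal in every juvenile pool. Shematrin-4 was the only member with a signal well above background in more than 1 earlier pool. In fertilized eggs the processed signal of Shematrin-4, in the scanner's arbitrary units, was 15.35, 8.32 and 67.7 in pools 1 to 3. In trochophore larvae it was 8.08, 19.0 and 9.77, and in D-shaped larvae 7.95, 8.38 and 14.9. In umbonal larvae it was 21.9, 13.3 and 11.6, and in juveniles it was 53870, 54930 and 36750. Only egg pool 3 and umbonal pool 1 were well above background among the 12 earlier arrays, and the lowest juvenile signal was 542.8 times the highest earlier one, that of egg pool 3.

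Shematrin-5 was not well above background in any of the 12 earlier pools. Its processed signal was 15.35, 8.99 and 6.05 in fertilized eggs, and 8.34, 18.5 and 10.03 in trochophore larvae. It was 7.05, 17.8 and 4.72 in D-shaped larvae and 7.28, 4.26 and 7.78 in umbonal larvae. In juveniles it was 7775, 7532 and 4220, all well above background, and the lowest of these was 227.7 times the highest earlier value. On 10 of the 12 earlier arrays the signal of Shematrin-5 was no larger than the scanner software's own error estimate, so that no order was read among its earlier stages.

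Shematrin-6 was well above background in 1 earlier pool, D-shaped pool 2. Its processed signal was 15.35, 8.33 and 9.45 in fertilized eggs and 8.67, 20.6 and 12.3 in trochophore larvae. It was 23.5, 51.3 and 16.4 in D-shaped larvae and 16.4, 7.88 and 23.2 in umbonal larvae. In juveniles it was 5127, 4565 and 2631, and the lowest of these was 51.3 times the signal of D-shaped pool 2. On egg pool 1 the same processed signal, 15.35, was given for all 3 shematrin probes, each below its error estimate of 15.4.

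**Figure D1:**
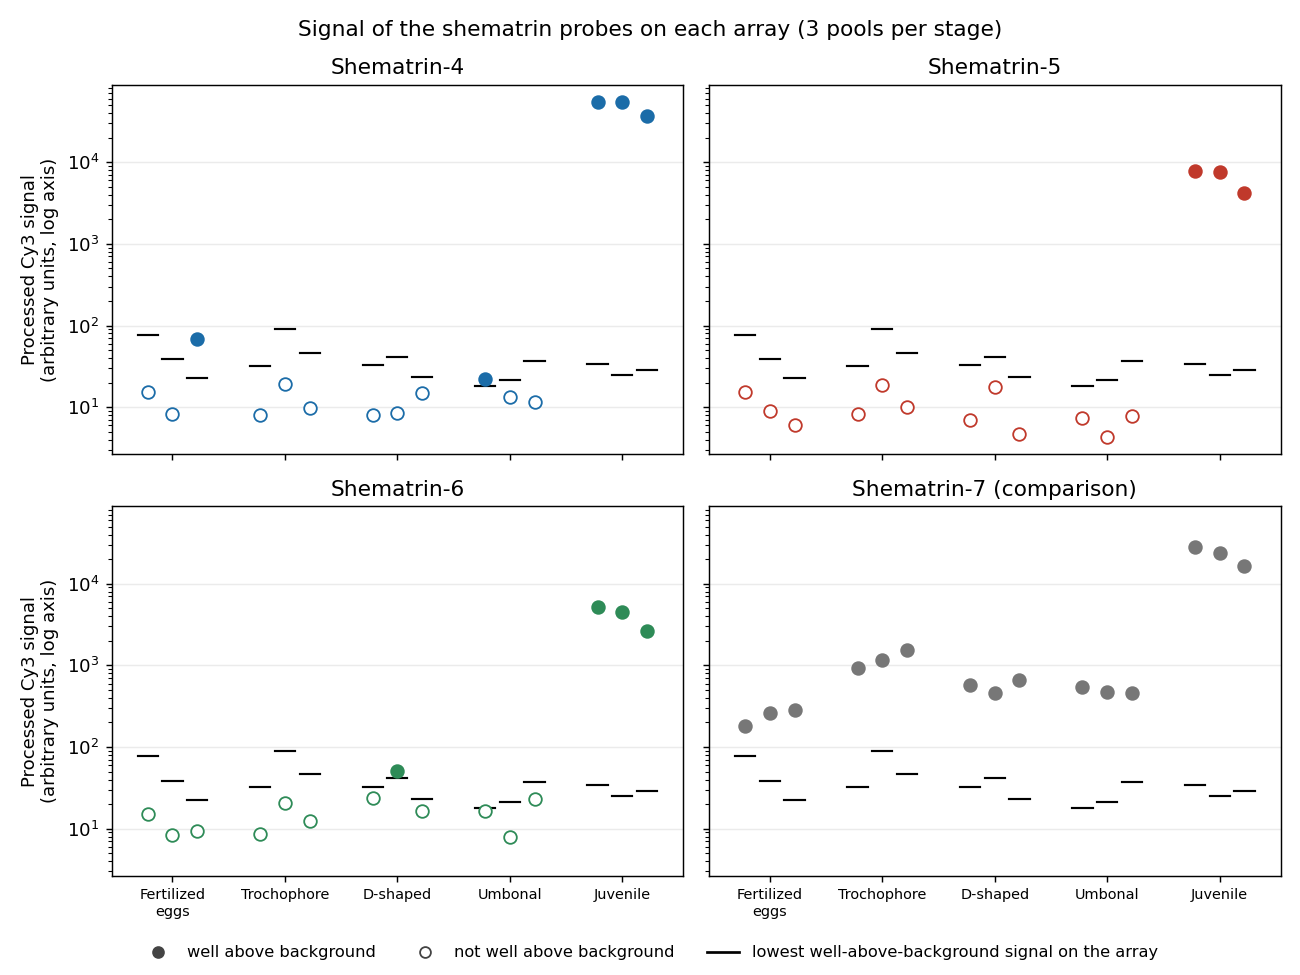
Processed Cy3 signal (arbitrary units, log axis) of Shematrin-4, Shematrin-5, Shematrin-6 and, for comparison, Shematrin-7 on each of the 15 arrays, by stage. Each point is 1 pool, filled where the probe was well above background, and the black dash is the lowest signal called well above background on that array; the juvenile points of the 3 shematrins lie between 2631 and 54930, and the earlier points at or below 67.7.

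Every juvenile array was above all 12 earlier arrays for the 3 shematrin probes, as it was for 12.0% of the 58686 probes with a value on every array. A probe that was well above background in all 3 juvenile pools and in none of the 12 earlier ones, as Shematrin-5 was, was found in 1.59% of the 58883 probes. Allowing 1 earlier pool, which took in Shematrin-6, gave 2.76%, and allowing 2, which took in Shematrin-4, gave 4.31%.

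The first question of the design for these genes was how they changed between consecutive stages. At the steps from egg to trochophore, from trochophore to D-shaped and from D-shaped to umbonal larvae, no shematrin probe was tested, because neither stage was well above background in all 3 pools. Without that filter, none of the 9 changes was called by limma, with adjusted p values between 0.0526, for Shematrin-6 at the step to the umbonal stage, and 0.83. No difference between consecutive earlier stages was therefore called, and at this signal such a difference could be missed.

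All 3 shematrin probes rose at the step from the umbonal stage to juveniles. Each entered this test through its juvenile pools alone, so that the filter itself favoured a rise. Calls here required a change of 2-fold or more and, in limma fitted over all 15 arrays, a p under 0.05 after Benjamini-Hochberg adjustment. By this measure 13.5% of the 52420 probes tested at this step were called higher in juveniles. On the quantile-normalized log2 scale Shematrin-4 went from 3.76 ± 0.05 (SD, n = 3) to 15.3 ± 0.28 (SD, n = 3). The difference was 11.57 (SE 0.71, adjusted p = 3.1e-08 in limma), a 3031-fold change, with 1 of the 3 umbonal pools well above background. With every array set no lower than its lowest well-above-background signal the fold was 2286.

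For Shematrin-5 and Shematrin-6 the umbonal stage gives only a limit, since no umbonal pool was well above background. Shematrin-5 reached 12.3 ± 0.45 (SD, n = 3) in juveniles and rose at least 287.5-fold (adjusted p = 2.9e-09 in limma). Shematrin-6 reached 11.51 ± 0.46 (SD, n = 3) and rose at least 168.7-fold (adjusted p = 2.1e-08 in limma). Such a bound sets the juvenile mean against the mean of the lowest signals called well above background on the umbonal arrays, and against the probe's own signal where that was higher. Here and below, the p value beside a bound is that of the fitted difference, with dim signals left as they were. With every array set no lower than its lowest well-above-background signal, the adjusted p values were 5.4e-09 for Shematrin-5 and 2.6e-08 for Shematrin-6 in limma. Juveniles and umbonal larvae lay on the same slide, so that this step involves no difference between slides. With normexp background correction and an offset of 50, which lifts dim signals, the log2 changes of Shematrin-4, Shematrin-5 and Shematrin-6 were 9.02, 6.28 and 5.32, below the values and bounds above and still called. Because 2 of these rises are lower bounds, the 3 genes were not ranked by them.

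Of the 52420 probes tested, 0.578% rose at least 100-fold between the umbonal stage and juveniles when each array was set no lower than its lowest well-above-background signal. The 3 shematrin probes were among these 303, with a limit of 100-fold that was chosen after their values were seen.

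**Figure D2:**
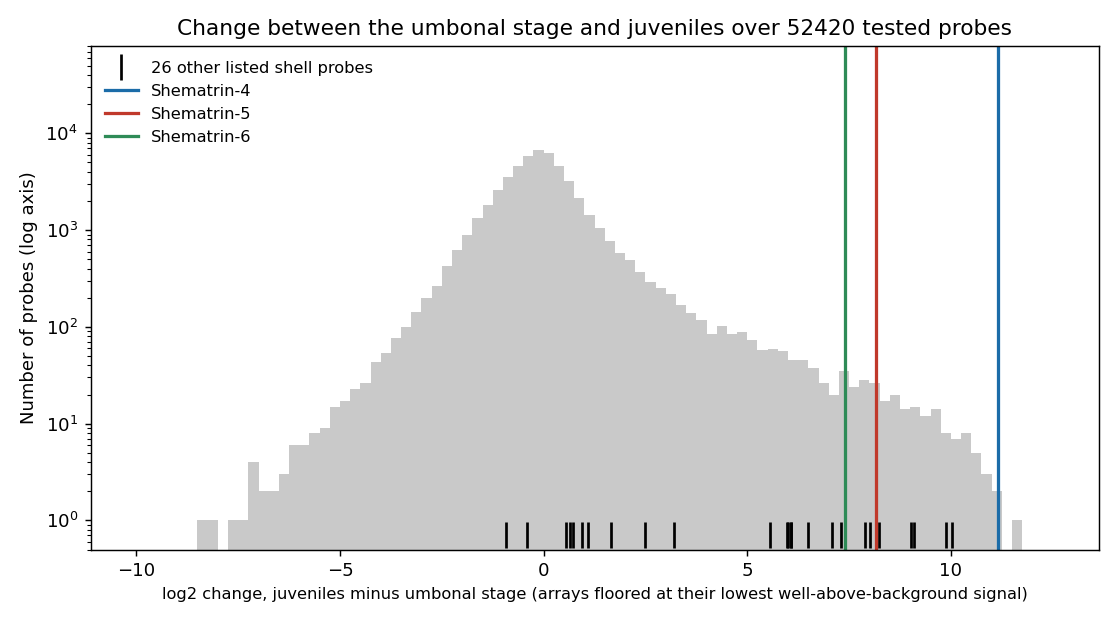
Change on the log2 scale from the umbonal stage to juveniles for the 52420 tested probes, in bins of 0.25, with the number of probes on a log axis and every array set no lower than its lowest well-above-background signal. Coloured lines mark Shematrin-4 at 11.16, Shematrin-5 at 8.17 and Shematrin-6 at 7.40, and black ticks mark the 26 other shell protein probes tested; the median over all tested probes was -0.12.

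Juveniles were also set against each of the 3 other stages. There too the shematrin probes entered the tests through the juvenile pools alone. These comparisons and the one with the umbonal stage share the same 3 juvenile arrays, so that their values stand side by side and do not repeat each other independently. The background of probes called higher in juveniles was 32.4% against eggs, 25.8% against trochophore larvae and 20.8% against D-shaped larvae, and all 3 shematrin probes were called higher in each. These shares move with the scaling: scaled by spike-in probes they were 61.2%, 45.6% and 28.7%, and with no normalization 59.7%, 45.1% and 36.9%.

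Shematrin-4 was 10.11 higher than in fertilized eggs on the log2 scale (SE 0.71, adjusted p = 1.6e-08 in limma), with 1 egg pool well above background. With every array set no lower than its lowest well-above-background signal, the difference was 8.14, or 282-fold against 1106-fold. The value rests on the egg pools: without egg pool 3 it was 11.27, and without egg pool 2 it was 9.37. Against trochophore larvae Shematrin-4 was at least 623.1-fold higher, and against D-shaped larvae at least 1270-fold (adjusted p = 6.4e-09 and 1.1e-08 in limma). Shematrin-5 was at least 48.1-fold, 75.5-fold and 154.0-fold higher than in eggs, trochophore larvae and D-shaped larvae (adjusted p = 1.9e-09, 1.4e-09 and 2.6e-09 in limma). Shematrin-6 was at least 28.2-fold higher than in eggs and 44.3-fold higher than in trochophore larvae (adjusted p = 7e-09 and 9.6e-09 in limma). Against D-shaped larvae, where 1 pool was well above background, it was 6.61 higher on the log2 scale (SE 0.46, adjusted p = 4.9e-08 in limma), a 97.9-fold change. With every array set no lower than its lowest well-above-background signal, that difference was 6.40, or 84.7-fold. With every array set no lower than its lowest well-above-background signal, the highest adjusted p among these bounds was 3.4e-07 in limma, for Shematrin-6 against eggs. The bounds depend on the background method. With normexp and an offset of 50, the log2 changes of Shematrin-4, Shematrin-5 and Shematrin-6 against trochophore larvae were 9.08, 6.16 and 5.16. Those lay below their bounds of 9.28, 6.24 and 5.47. Against D-shaped larvae Shematrin-4 also fell below its bound, as did Shematrin-5, at 6.09 against 7.27. Shematrin-6 was at 4.98 there, below 6.40. Against eggs Shematrin-5 and Shematrin-6, at 6.04 and 4.97, stayed above theirs of 5.59 and 4.82. All were still called.

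Eggs and trochophore larvae lay on slide 1 and juveniles on slide 2, and only the D-shaped stage was on both. With slide as a block, all 3 probes stayed called against every stage. That block rests on the D-shaped pools alone, where only Shematrin-6 in pool 2 was well above background. It therefore cannot show how far the slides differed for these probes. The log2 differences with that block for eggs, trochophore and D-shaped larvae were 9.32, 10.95 and 11.46 in Shematrin-4. They were 8.81, 9.62 and 9.44 in Shematrin-5, and 8.58, 8.73 and 7.58 in Shematrin-6. Where no pool of the earlier stage was well above background, such a fitted difference is not a measured size, and the bounds above apply. Against D-shaped pool 3, the only pool of that stage on the slide of the juveniles, the juvenile mean was at least 2273-fold higher in Shematrin-4, 275.5-fold in Shematrin-5 and 161.7-fold in Shematrin-6, a comparison with 1 pool that was not tested.

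**Figure D3:**
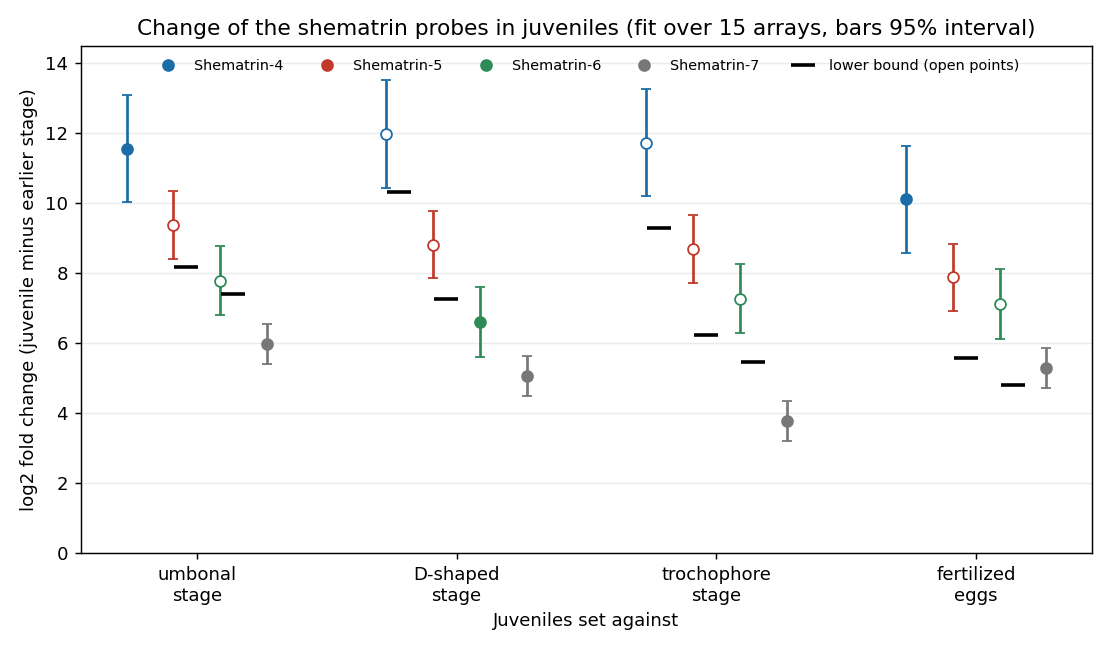
Change of Shematrin-4, Shematrin-5, Shematrin-6 and Shematrin-7 in juveniles against each of the 4 earlier stages, on the log2 scale, from the fit over 15 arrays with 95% intervals. Open points mark comparisons in which no pool of the earlier stage was well above background, where the black dash gives the lower bound; the lowest bound is 4.82, for Shematrin-6 against fertilized eggs.

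Shematrin-7 (CUST_47372_PI429347424), the fourth member of the family that the study names, was well above background on all 15 arrays and it changed at earlier steps as well. Its processed signal was 179.7, 258.1 and 287.8 in fertilized eggs, and 929.2, 1149 and 1561 in trochophore larvae. It was 568.1, 455.6 and 668.2 in D-shaped larvae and 547.7, 475 and 457.5 in umbonal larvae. In juveniles it was 27930, 24080 and 16490. Shematrin-7 rose by 1.53 on the log2 scale from egg to trochophore (SE 0.26, adjusted p = 9.7e-05 in limma), a step at which 53.1% of tested probes were called in either direction. It fell by 1.30 from trochophore to D-shaped larvae (SE 0.26, adjusted p = 0.00073 in limma), where 33.6% were called. With spike-in scaling that change was -0.69, under the 2-fold limit. The next step, to umbonal larvae, where 32.0% were called, gave -0.90 (SE 0.26, adjusted p = 0.011 in limma), under the 2-fold limit. Without D-shaped pool 3 it was -1.12 and called.

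From the umbonal stage to juveniles Shematrin-7 rose 5.97 on the log2 scale (SE 0.26, adjusted p = 1.4e-09 in limma), or 62.7-fold. The rise of Shematrin-4 exceeded that of Shematrin-7 by at least 5.19 on the log2 scale, that of Shematrin-5 by at least 2.20 and that of Shematrin-6 by at least 1.43. With normexp background correction the differences were 3.38, 0.64 and -0.32, and the one for Shematrin-6 changed sign. This comparison was chosen after the values were seen and was not tested.

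Among the juveniles, pool 3 had the lowest level of all 3 shematrin probes. The difference between pool 3 and the mean of pools 1 and 2, on the log2 scale, was -0.47 in Shematrin-4, -0.76 in Shematrin-5 and -0.79 in Shematrin-6. The median difference over the 51385 probes well above background in all juvenile pools was -0.02. A difference as low or lower was found in 5.18%, 1.15% and 0.973% of them for the 3 genes in that order. Pool 3 was the lowest for these same genes, so that low shares partly follow from the choice of that pool, and they were not tested. In Shematrin-7 it was -0.53. Pool 3 was the lowest pool for 38.6% of all these probes, and for 18 of the 26 other shell protein probes. With the arrays shifted to a common 75th percentile, the differences of the 3 genes were -0.34, -0.64 and -0.66. The pattern comes from 1 pool.

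**Figure D4:**
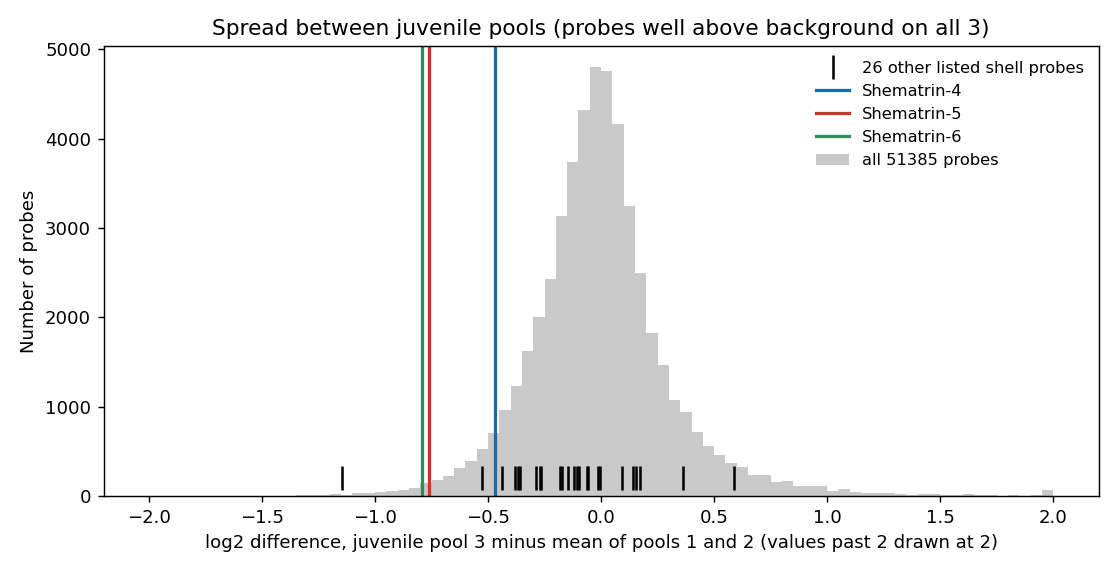
Difference on the log2 scale between juvenile pool 3 and the mean of pools 1 and 2, in bins of 0.05, for the 51385 probes well above background in all 3 pools, with the number of probes on the vertical axis. Coloured lines mark Shematrin-4 at -0.47, Shematrin-5 at -0.76 and Shematrin-6 at -0.79, and black ticks the 26 other shell protein probes; the bulk of the probes lies around -0.02.

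The other proteins of the shell were taken from the study's list of 27 further biomineralization-related probes, Shematrin-7 among them. The study described that list on these same samples, so that its direction is not independent evidence. Of the 27, 26 were tested at the step from the umbonal stage to juveniles. Of these, 20 were called higher, none was called lower and 6 were not called, some of them only for a change under the 2-fold limit. Over all tested probes 13.5% were called higher at this step. The median change of the 26 was 6.03 on the log2 scale, the same with each array set no lower than its lowest well-above-background signal. The median over all tested probes was -0.11. At the 3 earlier steps 3, 2 and 3 of the listed probes rose, and 1, 4 and 1 fell, of 14, 16 and 17 tested. Over all tested probes 53.1%, 33.6% and 32.0% were called at these steps in either direction.

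By shell layer, all 4 probes of nacreous layer proteins rose from the umbonal stage to juveniles, a step at which 13.5% of all tested probes were called higher. The lower bound of Pif, an acidic protein that binds aragonite, was 549-fold, and Nacrein, which carries a carbonic anhydrase domain, rose least, by 3.20 on the log2 scale. Pearlin, a protein of the nacre matrix, rose by 10.19. All 3 probes of prismatic layer proteins rose as well. Prismalin-14 rose by 9.01 and Prisilkin-39, a silk-like protein that binds chitin, by 7.41, and KRMP 1, a lysine-rich matrix protein, rose at least 237.3-fold.

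The 3 tyrosinase probes rose too, from 6.06 in Tyrosinase-like protein 1 to 10.03 in Tyrosinase; tyrosinases oxidize phenols and act in the outer organic cover of the shell. The second protein assigned to both layers, the 88 kDa protein of the prismatic and nacreous layers (CUST_367_PI429347424), rose at least 2.12-fold (fitted log2 difference 1.37, adjusted p = 0.019 in limma). Of the PFMG probes, named after genes found in mantle of this oyster, 5 of 8 tested were called higher, from 1.64 in PFMG8 to 7.54 in PFMG3. PFMG2, with a change of 0.65 (adjusted p = 0.0025 in limma), was under the 2-fold limit and not called. The other PFMG probes tested and not called also had an adjusted p under 0.05 in limma and missed only that limit. Of the 6 remaining probes 3 rose, and the largest change was 8.01 in the shell matrix protein (CUST_44067_PI429347424). The Ferritin-like protein, of an iron storage family, had a change of -0.93 from a level of 15.0 to 14.1 (adjusted p = 0.01 in limma). That was under the 2-fold limit, so it was not called.

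The 5 probes most alike to each shematrin in pattern were found by Pearson's r over the 15 arrays of normalized log2 values, among 52959 probes, as a description without a test. All points share the 3 juvenile arrays, and a probe that is bright only there has a high r with any other such probe. Shematrin-4 had its highest r with Pearlin (0.997), followed by 3 probes with no annotation used here, CUST_42619_PI429347424 (0.996), CUST_159_PI429683413 (0.995) and CUST_48434_PI429347424 (0.994), and a probe annotated by similarity to an aphid sequence (CUST_30456_PI429347424, 0.993). These 5 were well above background on 1 to 3 of the 12 earlier arrays. Shematrin-5 had its highest r with a second probe annotated as tyrosinase-like protein 2 (CUST_58084_PI429347424, 0.996). The next were CUST_16277_PI429347424 (0.993), CUST_13941_PI429347424 (0.992), CUST_223_PI429683413 (0.992) and CUST_21588_PI429347424 (0.991), with no annotation used here. CUST_58084_PI429347424, CUST_16277_PI429347424 and CUST_21588_PI429347424 were well above background on none of the 12 earlier arrays, CUST_13941_PI429347424 on 9 and CUST_223_PI429683413 on all 12.

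Shematrin-6 had its highest r with a probe that was not annotated (CUST_52359_PI429347424, 0.988), followed by the shell matrix protein (0.987), both of which were well above background on all 12 earlier arrays. CUST_43682_PI429347424, annotated as a putative uncharacterized protein (0.986), was so on 9, and CUST_1_PI429683413 and CUST_51909_PI429347424 (0.986 each), with no annotation used here, on 11 and 0. An r of 0.95 or more was reached by 476, 578 and 451 probes for Shematrin-4, Shematrin-5 and Shematrin-6, or 0.899%, 1.09% and 0.852% of the candidates. Shematrin-7 did not reach it, with 0.91, 0.94 and 0.94. Between the 3 shematrins r was 0.96 to 0.98 over 15 arrays, and 0.12 to 0.53 over the 12 earlier arrays, where nearly all of their values were not well above background.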

How the data were processed

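Per the file headers, Agilent Feature Extraction 11.5.1.1 had made each intensity from the scan by subtracting background, and it gives dim spots a small positive value. The authors deposited, besides, a table of processed log2 values, used here only as an alternative. The 3 probes and all lists were chosen with earlier results of these data known.

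Control and outlier spots were left out (17 to 56 outliers per array; no probe spot was saturated) and spots of a probe averaged. Signals were set to at least 1, taken to log2 and quantile-normalized over 58883 probes, as the study's methods name. limma 3.58.1 (R 4.3.3) was fitted to all 15 arrays in place of the study's SAM, with Benjamini-Hochberg adjustment over tested probes. A probe entered a comparison when every pool of 1 stage or the other, or of both, was well above background. On simulated data between the umbonal stage and juveniles, with 200 of 47185 probes changed by 2 on the log2 scale, 88.5% were called, with 10 false calls. The simulation used only probes well above background in all 3 umbonal pools. It therefore left out Shematrin-4, Shematrin-5 and Shematrin-6, and its rates do not describe probes that are dim in the earlier stage. Named are the 3 members, Shematrin-7, up to 4 probes of each group including those with the largest and smallest change, and the 5 probes most alike in pattern. Arrays give no counts, and their number limits the precision. Alternatives were other scalings, no normalization, the processed table, normexp on the median signal, other filters, a floor, fewer arrays, blocks and each array left out. Python 3.11.15 with numpy 2.4.6, pandas 2.3.3, scipy 1.17.1 and matplotlib 3.10.9 was used for tables and figures.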

Additional observations from a re-analysis of the deposited data

How the results depend on the processing

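All 192 alternatives of the 12 juvenile changes of Shematrin-4, Shematrin-5 and Shematrin-6 kept direction and call. Dim earlier pools left little room to fail and some settings repeat a value, so this count tests little. From the umbonal stage, changes lay at 9.02 to 11.72, 6.28 to 9.98 and 5.32 to 8.10 on the log2 scale, in that order. Normexp with an offset of 50 gave each lowest value. Leaving out single arrays gave 11.46 to 11.72, 9.22 to 9.63 and 7.63 to 8.06. Apart from the egg pools named for Shematrin-4, leaving out 1 array moved a change by over 1.5-fold only in Shematrin-5 against D-shaped larvae, from 8.82 to 9.44 without D-shaped pool 2. The rise of Shematrin-6 against that of Shematrin-7 turned from at least 1.43 to -0.32 with normexp (chosen after seeing the data). Under a filter on all 6 arrays none of the 3 probes was tested. Without filters the earlier steps still gave 0 of 3 calls. Of the other shell protein probes, 10 of 16 tested rose under that filter against 20 of 26, and 19 to 21 with each array left out in turn.

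No pairing of the pools by replicate number was visible, with deviations correlated between -0.20 and 0.11 over 12 pairs. This cannot show whether pools with the same number shared a culture. With the replicate number as a block all 3 probes stayed called against every stage, the change of Shematrin-4 from the umbonal stage was 11.57 (adjusted p = 2.1e-07 in limma), and 20 other shell probes rose.

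With all 6 arrays well above background, 12606 in place of 20264 probes were called from egg to trochophore, 19383 in place of 34013 between eggs and juveniles, and 18866 in place of 29193 between trochophore larvae and juveniles. With normexp 10204 in place of 15343 were called at the umbonal step and 9602 in place of 15403 at the juvenile step. The share of calls that were higher in juveniles than in umbonal larvae was 45.8%, and 58.9% after the 75th-percentile shift, 58.8% in the processed table and 65.7% with no normalization. Against eggs, trochophore and D-shaped larvae it was 49.7%, 46.0% and 46.1%, with no normalization 81.1%, 81.3% and 83.9%, and with spike-in scaling 82.0%, 80.7% and 68.6%. It was 59.9% against eggs after the 75th-percentile shift and in the processed table. At the 3 earlier steps it was 49.0%, 50.3% and 50.8%, with no normalization 63.2%, 66.5% and 84.5%, and with spike-in scaling 66.1%, 83.1% and 77.5%. Spike-in scaling moved the median of all probes against eggs from 0.00 to 1.81. Of the 5 probes most alike in pattern, Spearman's rho shared 0 with each shematrin's choice, and the 75th-percentile shift shared 1 for Shematrin-5 and 0 for Shematrin-6. Dim earlier signals limit every earlier level and each lower bound.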
